A study of Mus musculus with 8 samples.

Results

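Collagens are the triple-helical proteins that make up most of the fibrous matrix of bone, cartilage, tendon and basement membrane, and the collagen chain genes described here are the genes of their alpha chains. They were chosen by name alone, as every gene whose symbol is Col followed by a type number, the letter a and a chain number, and 43 of the 26873 features in the count table met that rule. Each collagen molecule is built from alpha chains that are hydroxylated and folded in the endoplasmic reticulum, secreted, trimmed by propeptidases and cross-linked by lysyl oxidases. Fibrillar collagens, above all type I with its alpha 1 and alpha 2 chains, form the tensile fibrils that mineral is laid on in bone. Network collagens form sheets such as the basement membrane, microfibrillar type VI surrounds cells, and the fibril-associated collagens with interrupted helices (FACIT) coat the fibrils. Grouped by class, the 43 genes were 8 fibrillar, 7 cartilage, 8 network, 5 microfibrillar, 6 FACIT, 4 transmembrane, 2 multiplexin (basement membrane zone collagens with interrupted helices), 1 anchoring fibril gene and 2 others.

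The libraries held messenger RNA of bone marrow mesenchymal stem cells (BMSCs), labelled as a wild-type cell line under osteogenic differentiation in every group. Cells were sampled on day 3 and on day 7 in 4 arms, PCL-O, PCL-E, PCL-S and PCL-SE, each named for the liquid extract of a polycaprolactone (PCL) scaffold made in serum-containing culture medium. The series title names S7 and E7 as peptides, and the arms were read as S7 (PCL-S), E7 (PCL-E), S7 with E7 (PCL-SE) and blank (PCL-O, by elimination); no source used here gives a dose. There is 1 library for each arm and day, 8 in all, so PCL-S and PCL-SE served as the S7 libraries of a day and PCL-O and PCL-E as the libraries without S7. Every adjusted p below therefore rests on how alike the pooled arms were, not on repeats of an arm, and the labels' n = 3 RNA samples could not be matched to columns. Gene identifiers in the table are those of rat although the labels give mouse, so no coordinates are given.

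Total counts ran from 32950326 to 41754124 per library, at which 3 counts equal 0.0718 to 0.0910 CPM (counts relative to the total of the library). The 10 stromal markers summed to 4897 to 6121 CPM in the 6 libraries other than the S7 libraries of day 7, and to 3313 to 3405 CPM in those. Most of that sum is Itgb1, which stood at 3500.1, 3503, 1841 and 1718 CPM on day 7 in the order PCL-O, PCL-E, PCL-S and PCL-SE. Of the 10, 5 were lower with S7 on day 7 and 2 (Cd44 and Pdgfra) higher. The marker counts of this paragraph are set against all genes tested, of which 7.10% were higher and 6.87% lower with S7 on day 3. On day 7 these shares were 24.9% and 26.2%, which the 2 of 10 stromal markers called higher do not exceed. The genes Cdh5, Tie1, Emcn and Cldn5 of endothelium and Adgre1 and Cd3e of blood cells were at 0 throughout. Other genes of these lists were present: Tek ran from 3.25 to 14.1 CPM and Cd14 from 5.97 to 18.9 CPM over the 8 libraries. With S7, 1 of 2 tested endothelial genes was called higher on day 3, and 1 of 2 tested blood cell genes on each day. The late osteoblast genes Sp7, Ibsp, Bglap and Sost were under 1 CPM in every library, so these defining markers of the labelled differentiation were near absent. Smooth muscle markers (8 genes) summed to 15787 to 16250 CPM without S7 and 11518 to 11675 with S7 on day 3, and to 12897 to 13997 and 4511 to 5045 on day 7. The day 3 sums follow Acta2 and Tagln, since 2 of the 8 were called lower and 2 higher with S7 on day 3 (median log2 fold change 0.02); on day 7, 7 were lower. The 8 skeletal muscle markers summed to 71.9 to 149.9 and 6.34 to 7.19 on day 3, and to 19.9 to 77.3 and 1.68 to 1.76 on day 7, with Myf5 and Pax7 at 0. The 8 adipocyte markers summed to 21.8 to 32.0 CPM without S7 and 17.6 to 18.2 with it on day 3, and to 14.3 to 17.8 and 36.5 to 43.1 on day 7, when 3 of the 4 tested were higher with S7 and Lpl was lower. The adipocyte sums of day 3 follow Lpl, at 28.9 and 16.5 CPM without S7 and 8.25 and 7.99 with it. Of the 4 tested, 1 was called lower and 0 higher on day 3, with a median log2 fold change of 1.33. These sums moved with S7 beside the collagen differences below, and their part in those was not tested. In bulk RNA, fewer cells of a type and less RNA per cell cannot be told apart.

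Collagen chain genes took a large part of each library and that part moved in opposite directions on the 2 days. On day 3 they held 5.74% (PCL-O) and 6.09% (PCL-E) of all counts without S7, and 9.22% (PCL-S) and 8.59% (PCL-SE) with it. The day 7 shares were 6.90% (PCL-O) and 5.04% (PCL-E) without S7, and 2.04% (PCL-S) and 1.99% (PCL-SE) with it. The S7 libraries were above both others on day 3 and below both on day 7, with no overlap on either day. Relative to PCL-O of the same day, the collagen share of PCL-S was 1.61-fold higher on day 3 and 3.39-fold lower on day 7. From day 3 to day 7 the share was 4.53-fold lower in PCL-S and 4.32-fold lower in PCL-SE, while it was 1.20-fold higher in PCL-O and stood at 0.828 of its day 3 value in PCL-E. These shares are values of single libraries with no test.

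**Figure D1:**
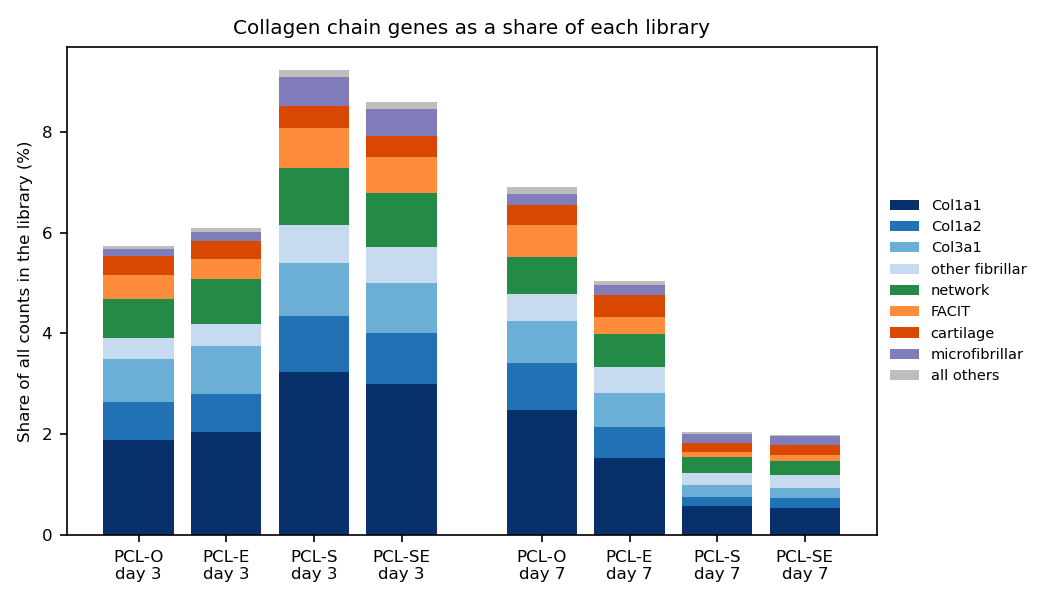
Share of all counts in each of the 8 libraries (y axis, percent) that fell on collagen chain genes, stacked by Col1a1, Col1a2, Col3a1 and the remaining genes by class, for the 4 arms (x axis) on day 3 and day 7; each bar is 1 library. The S7 bars stand highest on day 3 (9.22% and 8.59%) and lowest on day 7 (2.04% and 1.99%).

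Most collagen counts were fibrillar in every library, and the make-up shifted with S7. Fibrillar genes held 68.2% of the collagen counts in PCL-O and 66.8% in PCL-S on day 3, and 69.4% and 60.6% on day 7. Col1a1 alone held 32.97% to 35.1% of the collagen counts in the 4 libraries of day 3. Its day 7 part was 35.9% (PCL-O) and 30.4% (PCL-E) without S7 and 27.8% (PCL-S) and 26.5% (PCL-SE) with it. The microfibrillar genes of type VI took 2.29% and 2.73% of collagen counts without S7 on day 3 and 6.31% and 6.38% with it. On day 7 they took 3.25% and 3.88% without S7 and 8.69% with PCL-S and 8.68% with PCL-SE. Type VI held a larger part of the collagen counts in the S7 libraries on both days.

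Compared per length, as the deposited fragments per kilobase scaled to the library (FPKM), Col1a1 was the most abundant collagen transcript by its median over the 8 libraries (3179 FPKM), followed by Col3a1 (1678) and Col1a2 (1587). Col5a2 (622), Col11a1 (421), Col8a1 (412), Col12a1 (352) and Col4a1 (302) came next. Among all features, Col1a1 ranked 2 by FPKM in both S7 libraries of day 3, where its rank was 13 for PCL-O and 11 for PCL-E. Its day 7 ranks were 5 for PCL-O, 16 for PCL-E, 58 for PCL-S and 65 for PCL-SE. Within the S7 arms, Col1a1 was ranked above its place in the other arms on day 3 and below it on day 7.

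The ratios between partner chains of types I, IV and VI varied little, whereas those between fibril types and between the chains of types V and VIII varied more. Between fibril types, the highest library over the lowest ran from 1.44-fold for Col3a1 to Col1a1 to 2.96-fold for Col11a1 to Col1a1. Type I collagen is made of a pair of alpha 1 chains with 1 alpha 2 chain, and the FPKM ratio of Col1a1 to Col1a2 lay between 1.91 and 2.26 in all 8 libraries, while Col1a1 itself ranged from 849 to 5203 FPKM. The ratio of Col4a1 to Col4a2, partners in the main basement membrane collagen, lay between 1.27 and 1.49, and that of Col6a1 to Col6a2 between 1.06 and 1.28. Col8a1 over Col8a2, the chains of the short-chain network collagen VIII, behaved otherwise: the FPKM ratio was, in the order PCL-O, PCL-E, PCL-S, PCL-SE, 1.43, 1.75, 1.98 and 2.08 on day 3 and 2.25, 1.55, 0.964 and 0.981 on day 7. The FPKM ratio of Col5a2 to Col1a1, where type V is the collagen that limits the width of type I fibrils, was 0.179 and 0.164 without S7 and 0.151 and 0.155 with it on day 3. On day 7 the same ratio was 0.174 (PCL-O) and 0.279 (PCL-E) without S7 and 0.361 (PCL-S) and 0.394 (PCL-SE) with it. The ratio of Col5a1 to Col1a1 went the other way on day 3, at 0.0812 and 0.0811 without S7 and 0.113 and 0.111 with it. Within type V, Col5a1 over Col5a2 was 0.454 and 0.494 without S7 and 0.749 and 0.715 with it on day 3. On day 7 that partner ratio lay between 0.387 and 0.414. Col11a1, the cartilage counterpart of type V chains, stood at 0.108 and 0.204 of Col1a1 without S7 on day 7 and at 0.255 and 0.295 with it. On day 7 the ratios of Col5a2 and Col11a1 to Col1a1 were highest with S7 and lowest in PCL-O, with PCL-E in between, and no test was made of them.

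**Figure D2:**
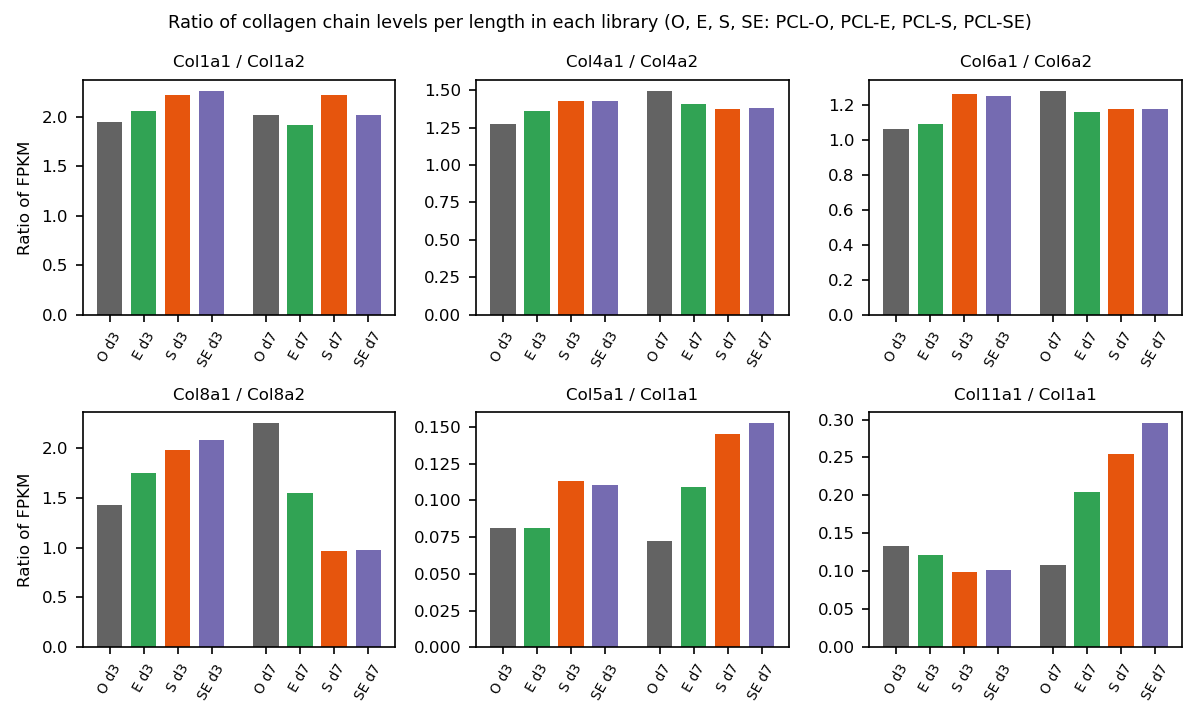
FPKM ratios (y axis) of 6 pairs of collagen chains, 1 panel per pair and 1 bar per library, by arm (O, E, S and SE) and day (d3 and d7). Col1a1 to Col1a2 stays between 1.91 and 2.26, whereas Col5a1 and Col11a1 relative to Col1a1 are higher in the S7 libraries of day 7 (0.145 and 0.152 for Col5a1) than in PCL-O and PCL-E (0.0721 and 0.109).

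Of the 43 genes, 34 had enough counts for the test across 15942 genes, and 28 of these reached 5 CPM in at least 1 library. With S7 on day 3, 11 collagen genes were higher and 8 lower, where 7.10% and 6.87% of all genes tested were called in those directions. With S7 on day 7, 1 was higher and 30 were lower, where 24.9% and 26.2% of all genes tested were. The median log2 fold change over the 34 genes was 0.45 on day 3 and -1.76 on day 7, against 0.00 and -0.03 over all genes tested. The difference between the days (S7 by day) was called lower for 28 of the 34 and higher for 0, where 15.5% and 13.2% of all genes tested were called. On both days the libraries with and without S7 did not overlap in CPM for any collagen gene called. With 2 libraries a side and genes picked by their difference, this adds no support to the calls. Among the collagen genes not called on day 3, only Col9a1, Col17a1 and Col20a1 overlapped. The other uncalled genes, Col1a1, Col1a2, Col3a1 and Col12a1 among them, did not overlap either. The share of genes without overlap was not computed over all genes tested. The call of a difference was an adjusted p (Benjamini-Hochberg over all 15942 genes) under 0.05 in edgeR's quasi-likelihood test.

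By their calls on the 2 days, the collagen genes fell mainly into 3 patterns. Higher with S7 on day 3 and lower on day 7 were 8 genes (23.5% of those tested, against 1.45% of all genes): Col4a1, Col4a2, Col5a1, Col5a2, Col5a3, Col6a1, Col6a2 and Col16a1. Lower on both days were another 8 (23.5%, against 4.89%): Col2a1, Col8a2, Col9a2, Col10a1, Col11a2, Col14a1, Col19a1 and Col24a1. Not called on day 3 and lower on day 7 were 14 (41.2%, against 19.8%), among them Col1a1, Col1a2, Col3a1 and Col12a1. Higher on day 3 with no call on day 7 were Col9a3 and Col18a1 (2.52% of all genes), higher on both days was Col7a1 (3.14% of all genes), and Col17a1 was not called on either day. Calls on day 3 depended on single libraries. Those of Col5a1, Col6a1, Col6a2, Col7a1 and Col16a1 (higher) and Col9a2 and Col19a1 (lower) held when each library was left out in turn, and the others of the 19 did not. Without any 1 library of day 3, fewer collagen genes and fewer of all genes were called, so this loss was not particular to collagen genes. On day 7, 27 of 31 calls held without each library; those of Col4a4, Col6a1, Col6a2 and Col20a1 did not.

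**Figure D3:**
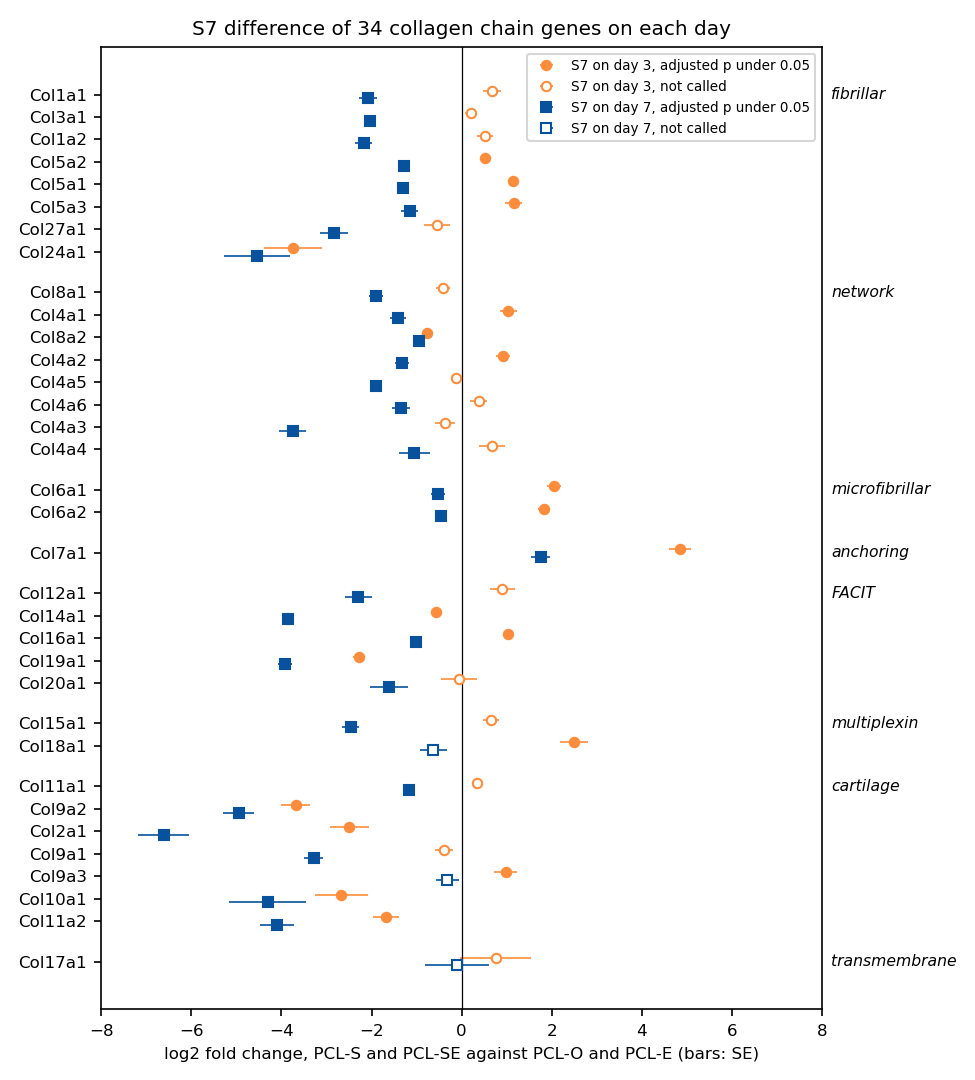
Log2 fold change of S7 libraries over libraries without S7 (x axis) for the 34 collagen genes tested, on day 3 and on day 7, with standard errors as bars; filled points passed the test. The day 7 points lie below 0 for 33 genes, with Col7a1 above, and on day 3 the points lie on both sides of 0.

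Total-count scaling moves the median of all genes for S7 on day 7 from -0.03 to 0.19 and the split of all calls from 3965 higher and 4172 lower to 5642 and 3008. The collagen split under it was 1 higher and 27 lower, without Col4a4, Col6a1 and Col6a2. Collagen transcripts are long, and 30 of the 34 genes lay in the longest of 4 equal length classes of genes (3.57 to 27.2 kb), where 41.8% of genes were called lower with S7 on day 7 against 13.9% in the shortest class. With the trend over length removed, 27 collagen genes were lower with S7 on day 7, and 15 were higher on day 3 with Col1a1, Col1a2, Col12a1 and Col15a1 added. For S7 by day, the same scaling took the median over all genes from -0.03 to 0.21 and the split of all calls from 2105 higher and 2473 lower to 3722 and 1750, with 27 collagen genes lower.

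The per-library values below are CPM in the order PCL-O, PCL-E, PCL-S and PCL-SE. Fold changes are log2 with their standard error, taken from counts scaled with TMM, so a log2 fold change can depart from the CPM of a library total. Among the 8 fibrillar genes, 3 rose with S7 on day 3, 1 fell, and all 8 fell on day 7. Col1a1, the alpha 1 chain of type I and main collagen of bone, stood at 18908, 20401, 32384 and 29957 CPM on day 3 and at 24758, 15347, 5659 and 5273 on day 7. Col1a2, the alpha 2 chain, stood at 7390.5, 7610.0, 11115 and 10113 CPM on day 3 and 9342, 6159, 1961 and 2011 on day 7. Both chains were higher in the S7 libraries on day 3 without passing the test (log2 0.67 ± 0.20, adjusted p = 0.0666 for Col1a1, and 0.51 ± 0.18, adjusted p = 0.109 for Col1a2). Both fell with S7 on day 7, Col1a1 4.24-fold (-2.09 ± 0.20, adjusted p = 0.000433) and Col1a2 4.52-fold (-2.18 ± 0.19, adjusted p = 0.00029). On day 7 PCL-E lay below PCL-O for both chains but well above the S7 libraries.

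Col3a1, the type III collagen of soft tissue that joins type I in fibrils, stood at 8561, 9452, 10454 and 10024 CPM on day 3 and 8413, 6713, 2233 and 2082 on day 7. Its S7 difference was 0.20 ± 0.13, adjusted p = 0.371 on day 3, which did not pass the test, and it fell by 2.03 ± 0.14, adjusted p = 0.00016 on day 7. The 3 type V chains, which initiate fibrils and limit their width, rose on day 3 and fell on day 7. Col5a1 stood at 1527, 1647, 3618 and 3268 CPM on day 3 and 1778, 1656, 814 and 801 on day 7, a log2 fold change of 1.13 ± 0.10, adjusted p = 0.0016 and then -1.31 ± 0.10, adjusted p = 0.000215. Col5a2 stood at 2605, 2579, 3763 and 3574 CPM on day 3 and 3320.2, 3293, 1573 and 1601 on day 7 (0.52 ± 0.08, adjusted p = 0.00979, then -1.28 ± 0.08, adjusted p = 0.000147). Col5a3, the least abundant of the type V chains, stood at 88.7, 129.9, 247 and 232 CPM on day 3 and 165, 197, 105 and 84.8 on day 7 (1.16 ± 0.19, adjusted p = 0.0102, then -1.15 ± 0.19, adjusted p = 0.00262). PCL-O and PCL-E lay close together for Col5a1 and Col5a2 on both days. Col27a1, a fibrillar collagen of developing cartilage, departed from these: it stood at 21.6, 18.7, 13.6 and 13.6 CPM on day 3 and 49.2, 22.4, 5.68 and 5.52 on day 7, with PCL-O of day 7 the highest library. It fell with S7 on day 7 (-2.84 ± 0.31, adjusted p = 0.000639) and was not called on day 3 (-0.54 ± 0.29, adjusted p = 0.267).

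The largest rises with S7 on day 3 were those of Col7a1, Col18a1, Col6a1 and Col6a2. Col6a1, an alpha chain of the beaded type VI filaments around cells, stood at 616, 791, 2982 and 2791 CPM on day 3 and 1155, 962, 876 and 855 on day 7. Its partner chain Col6a2 stood at 695, 872, 2837 and 2688 CPM on day 3 and 1086, 995, 894 and 871 on day 7. On day 3 the S7 libraries were 4.15-fold higher for Col6a1 (2.05 ± 0.16, adjusted p = 0.00131) and 3.57-fold higher for Col6a2 (1.83 ± 0.13, adjusted p = 0.00127). On day 7 the difference was small, -0.52 ± 0.16, adjusted p = 0.0295 for Col6a1 and -0.46 ± 0.13, adjusted p = 0.0228 for Col6a2. These day 7 calls were lost under total-count scaling (-0.29 and -0.24), with the length trend removed, and when PCL-S or PCL-SE of either day or PCL-O of day 7 was left out. Col7a1, the anchoring fibril collagen that ties epithelial basement membrane to the stroma beneath, stood at 1.88, 2.71, 66.0 and 61.9 CPM on day 3 and 3.13, 6.01, 15.02 and 20.5 on day 7. It rose with S7 by 4.85 ± 0.24, adjusted p = 0.000731 on day 3, which is 28.8-fold, and by 1.75 ± 0.21, adjusted p = 0.000902 on day 7. Col7a1 was the only collagen gene called higher with S7 on day 7, and its difference was smaller than on day 3 (-3.10 ± 0.31, adjusted p = 0.00205 for S7 by day). Of the 8 epithelial markers, Esrp1 was at 0, and the list summed to 2.79 to 11.3 CPM over the 8 libraries.

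**Figure D4:**
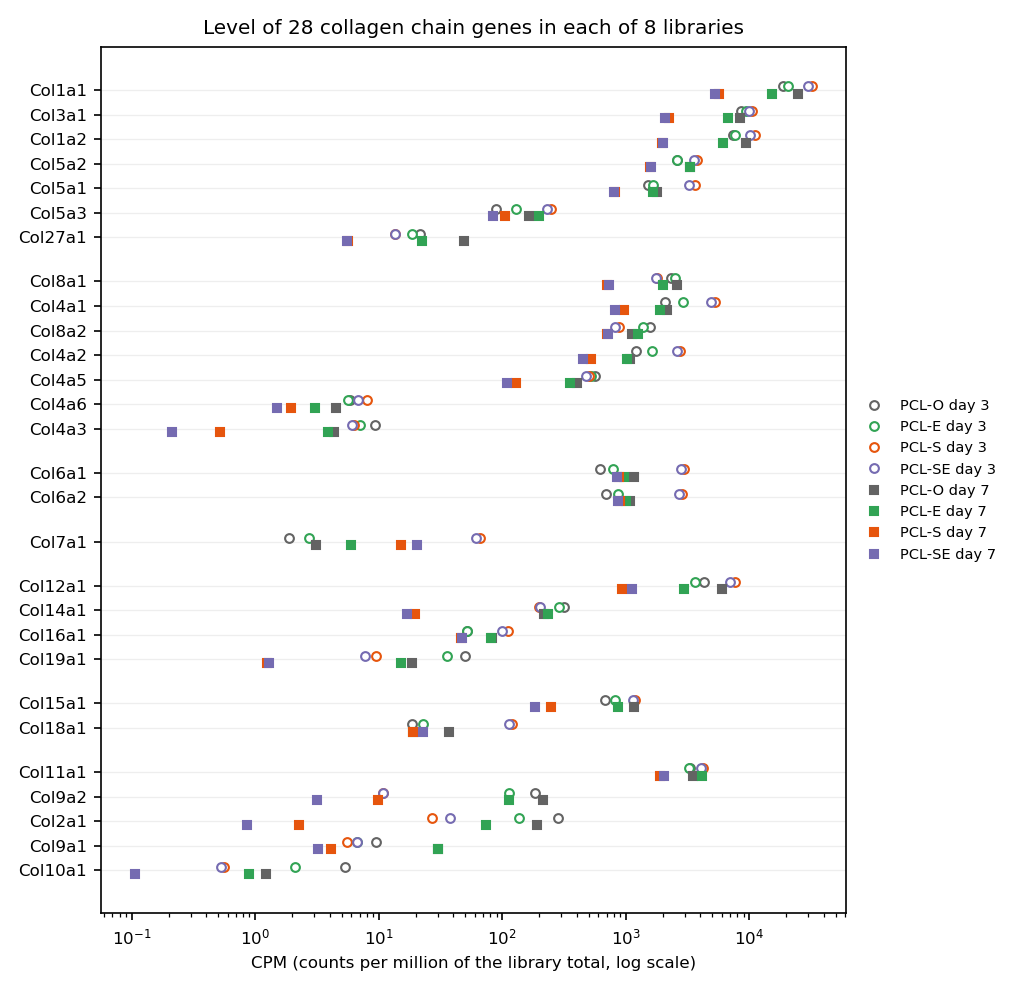
CPM on a log axis (x) of 28 collagen genes (y, grouped by class) in each of the 8 libraries, with circles for day 3, squares for day 7 and 1 colour per arm; points that coincide hide each other. Col7a1 is higher with S7 on both days, Col6a1 mainly on day 3, and Col1a1, Col2a1 and Col14a1 are lower with S7 on day 7; a library at 0 CPM, as Col10a1 in PCL-S of day 7, cannot be drawn.

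All 8 network genes fell with S7 on day 7, whereas on day 3 they split into 2 that rose, 1 that fell and 5 that were not called. Col4a1, a chain of the ubiquitous type IV basement membrane collagen, stood at 2067, 2929, 5233 and 4926 CPM on day 3 and 2144, 1898, 960.1 and 822 on day 7. Col4a2, its partner, stood at 1220.3, 1622, 2754 and 2592 CPM on day 3 and 1080.0, 1015, 527 and 448 on day 7. Both rose with S7 on day 3 (1.04 ± 0.18, adjusted p = 0.0135 and 0.93 ± 0.16, adjusted p = 0.012) and fell on day 7 (-1.41 ± 0.18, adjusted p = 0.00116 and -1.33 ± 0.16, adjusted p = 0.000827). The chains of more restricted basement membranes were not called on day 3. Col4a5 stood at 564, 523, 506 and 478 CPM on day 3 and 403, 354.5, 128 and 109 on day 7, with a log2 fold change of -1.90 ± 0.09, adjusted p = 8.66e-05 on day 7. Col4a3, a chain of the basement membranes of kidney and lung, stood at 9.27, 7.12, 6.30 and 6.11 CPM on day 3 and 4.34, 3.88, 0.516 and 0.213 on day 7 (-3.75 ± 0.30, adjusted p = 0.000242). Col4a6 stood at 5.82, 5.68, 8.08 and 6.84 CPM on day 3 and 4.49, 3.04, 1.94 and 1.49 on day 7 (-1.35 ± 0.21, adjusted p = 0.00219). All of these had a lower level with S7 on day 7, and Col4a3 was under 1 CPM in both S7 libraries.

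Type VIII chains, found around vessels and in the cornea, were lower with S7 on both days in CPM. Col8a1 stood at 2307, 2496, 1803 and 1768 CPM on day 3 and 2618, 1991, 708 and 728 on day 7 (-0.41 ± 0.15, adjusted p = 0.114, then -1.91 ± 0.15, adjusted p = 0.000241). Col8a2 stood at 1567, 1381, 882 and 822 CPM on day 3 and 1127, 1245, 711 and 719 on day 7 (-0.77 ± 0.09, adjusted p = 0.00437, then -0.95 ± 0.09, adjusted p = 0.000454). The S7 by day term of Col8a2 did not pass the test (-0.18 ± 0.13, adjusted p = 0.346), unlike that of Col8a1 (-1.49 ± 0.21, adjusted p = 0.00431).

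Within the FACIT class, 1 gene rose and 2 fell with S7 on day 3, and all 5 tested fell on day 7. Col12a1, which links fibrils in tendon and bone surfaces, stood at 4263, 3647, 7607 and 6954 CPM on day 3 and 5995, 2968, 939 and 1119 on day 7. It was higher with S7 on day 3 without passing the test (0.90 ± 0.28, adjusted p = 0.0802) and fell by 2.29 ± 0.29, adjusted p = 0.0011 on day 7, when PCL-E was also below PCL-O. Col14a1, the related collagen of mature fibrils, stood at 316, 289, 198 and 203 CPM on day 3 and 217, 234, 19.6 and 17.1 on day 7. Its fall was small on day 3 (-0.57 ± 0.09, adjusted p = 0.00955) and 14.4-fold on day 7 (-3.85 ± 0.10, adjusted p = 1.49e-05). Col16a1, a minor fibril-associated chain of skin and cartilage, stood at 52.1, 52.3, 110.4 and 99.1 CPM on day 3 and 82.6, 80.8, 46.4 and 47.6 on day 7, with log2 fold changes of 1.02 ± 0.08, adjusted p = 0.00134 and then -1.02 ± 0.08, adjusted p = 0.000242. Col19a1, a rare chain of basement membrane zones, stood at 50.2, 35.5, 9.56 and 7.78 CPM on day 3 and 18.5, 15.02, 1.24 and 1.31 on day 7, lower on both days (-2.28 ± 0.14, adjusted p = 0.000893, then -3.92 ± 0.16, adjusted p = 7.56e-05). On day 3 these fibril-coating chains differed in direction, and on day 7 each tested one was lower.

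The multiplexins are the basement membrane zone collagens XV and XVIII, whose C-terminal fragments include endostatin. Col15a1 stood at 677, 816, 1185 and 1141 CPM on day 3 and 1177, 872, 248 and 186 on day 7 (0.65 ± 0.18, adjusted p = 0.062, then -2.47 ± 0.19, adjusted p = 0.000235). Col18a1 stood at 18.6, 22.9, 120.1 and 112 CPM on day 3 and 36.8, 19.0, 18.8 and 22.7 on day 7. It rose 5.65-fold with S7 on day 3 (2.50 ± 0.31, adjusted p = 0.00444), while on day 7 the groups overlapped and PCL-O alone stood above the other 3 libraries (-0.63 ± 0.30, adjusted p = 0.127).

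The cartilage class was lower with S7 for 4 of 7 genes on day 3, when 1 (Col9a3) was higher, and for 6 of 7 on day 7. Over all genes tested, 6.87% were lower and 7.10% higher on day 3, and 26.2% were lower on day 7. Col2a1, the main fibril collagen of cartilage, stood at 283, 137, 27.3 and 37.8 CPM on day 3 and 192, 74.4, 2.25 and 0.853 on day 7. It fell on both days (-2.49 ± 0.43, adjusted p = 0.0128, then -6.62 ± 0.56, adjusted p = 0.000285), and PCL-E was below PCL-O on both. Col9a2, a chain of the type IX collagen that decorates type II fibrils, stood at 183, 113, 10.9 and 10.9 CPM on day 3 and 214, 114, 9.83 and 3.15 on day 7 (-3.68 ± 0.32, adjusted p = 0.0016, then -4.95 ± 0.34, adjusted p = 0.000173). Its partner Col9a1 had another course, 9.56, 6.66, 5.51 and 6.66 CPM on day 3 and 30.2, 30.2, 4.10 and 3.20 on day 7, with no call on day 3 (-0.38 ± 0.20, adjusted p = 0.26) and -3.28 ± 0.21, adjusted p = 0.000147 on day 7. Col10a1, the collagen of hypertrophic cartilage, stood at 5.33, 2.10, 0.561 and 0.528 CPM on day 3 and 1.21, 0.886, 0 and 0.107 on day 7, and was lower on both days (-2.67 ± 0.60, adjusted p = 0.0298, then -4.31 ± 0.86, adjusted p = 0.0057). Col11a1 was the exception in level: at 3326, 3269, 4253 and 4028 CPM on day 3 and 3530.0, 4128, 1901 and 2048 on day 7 it was among the most abundant collagen genes, with S7 differences of 0.35 ± 0.09, adjusted p = 0.054 and -1.18 ± 0.09, adjusted p = 0.000242. Of 10 chondrocyte markers, 7 were tested and 6 of these were lower with S7 on day 7, where 26.2% of all genes tested were. Their sum was 128 to 273 CPM without S7 and 86.8 to 102 CPM with S7 on day 7, with Matn1, Matn3, Snorc, Ucma, Chad and Cnmd under 1 CPM in every library, and the part of such cells in the collagen differences was not tested.

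The remaining genes were scarce. Col4a4, Col9a3, Col11a2, Col17a1, Col20a1 and Col24a1 were tested but stayed under 5 CPM in every library. Of these, Col11a2 and Col24a1 were called lower with S7 on both days, Col4a4 and Col20a1 on day 7 only, and Col9a3 was called higher on day 3 only; Col17a1, a hemidesmosome collagen, was called nowhere. Not tested were Col13a1, Col22a1, Col23a1, Col25a1, Col26a1 and Col28a1, each with at most 0.264 CPM, and Col6a4, Col6a5 and Col6a6, which had 0 counts in all 8 libraries. Col6a3, the remaining type VI chain of most tissues, and Col21a1 were not analysed here.

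Between days, most collagen genes fell in the S7 arms and few were called in the others. Without S7, 2 collagen genes were called higher on day 7 than on day 3 (Col9a1 and Col16a1) and 2 lower (Col4a5 and Col19a1), where 0.671% and 0.935% of all genes tested were called. The log2 fold changes were 1.84 ± 0.20, adjusted p = 0.0167 for Col9a1, 0.58 ± 0.08, adjusted p = 0.0276 for Col16a1, -0.59 ± 0.08, adjusted p = 0.0293 for Col4a5 and -1.41 ± 0.13, adjusted p = 0.0132 for Col19a1. These calls depended on single libraries, as did those over all genes. They were lost without PCL-O or PCL-E of day 3, when the calls of all other genes were lost too. More collagen genes and more of all genes were called without PCL-O or PCL-E of day 7, and fewer of both without any 1 of the S7 libraries. DESeq2 called 13 collagen genes, 6 higher and 7 lower, where it called 1.82% and 3.37% of all genes tested. Col1a1 showed -0.06 ± 0.20, adjusted p = 0.919 and Col3a1 -0.32 ± 0.13, adjusted p = 0.304 between the days without S7. With S7, 32 of 34 collagen genes fell from day 3 to day 7 and 0 rose, where 26.4% and 24.4% of all genes tested were called. The median over the 34 was -2.38 with S7 and 0.01 without. Col1a1 fell by 2.82 ± 0.21, adjusted p = 0.00018, Col14a1 by 3.76 ± 0.10, adjusted p = 2.72e-05 and Col4a3 by 4.43 ± 0.30, adjusted p = 0.000151 on the log2 scale. For that contrast, scaling by total counts took the median over all genes from -0.03 to 0.28 and the split of all calls from 3889 higher and 4201 lower to 6256 and 2685, with 31 collagen genes lower. The test of whether the day difference depends on S7 is the S7 by day term given above, which was called for 28 of the 34.

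E7 was tested over both days as 1 term, PCL-E and PCL-SE against PCL-O and PCL-S. No collagen gene was called (0% of all genes tested), and the adjusted p ran from 0.895 to 0.999. The groups overlapped for every collagen gene tested. Each side pools both days and both S7 states, so such overlap is nearly set by the design and says nothing about E7. At an unadjusted p under 0.05 there were 6 of the 34 collagen genes tested, where 589 of all 15942 genes tested were. DESeq2 called 0 collagen genes. Those with the largest values among the 6 were Col24a1 (-1.13 ± 0.45, adjusted p = 0.895), Col9a2 (-0.81 ± 0.21, adjusted p = 0.895) and Col2a1 (-0.80 ± 0.32, adjusted p = 0.895). The absence of a call does not show that E7 had no effect on these genes, since 3 residual degrees of freedom carry the test.

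Single pairs have 1 library per side and no test, and are given as log2 ratios of TMM-scaled CPM with 2 added, for genes that reached 20 CPM in at least 1 of the pair. PCL-E against PCL-O on day 7 gave 3 of 23 collagen genes at least 2-fold lower and 0 higher, where 1.09% and 0.791% of all such genes were. These 3 were Col2a1 (-1.43), Col27a1 (-1.16) and Col12a1 (-1.11), with Col9a2 at -0.996 and Col18a1 at -0.98 just short of them, and with 0.5 added in place of 2 all 5 were at least 2-fold lower. Type I chains lay at -0.78 for Col1a1 and -0.70 for Col1a2 in that pair, and Col3a1 at -0.42. On day 3 the same pair had 1 of 23 lower, Col2a1 (-1.07), and 0 higher, where 0.251% and 0.103% of all genes were. For PCL-S against PCL-O, 9 collagen genes of 24 were 2-fold higher and 3 lower on day 3 (2.55% and 3.25% of all genes), and 0 of 23 were higher and 19 lower on day 7 (7.79% and 10.1%). For PCL-SE against PCL-E, 5 of 23 were 2-fold higher and 3 lower on day 3 (1.76% and 1.99%), and 1 of 24 was higher and 18 lower on day 7 (3.91% and 6.03%). When S7 was present, PCL-SE against PCL-S had 0 of 21 collagen genes 2-fold apart on day 3 and 0 of 19 on day 7, where 0.0735% and 0.0926% of all genes were lower and 0.0588% and 0.159% higher. The lower type I, type II and type XII values of PCL-E on day 7 were seen in the pair without S7. In the day 7 pair with S7, Col2a1 and Col9a2 were under the 20 CPM cutoff, so the 0 of 19 does not cover them. There Col2a1 went from 2.25 CPM (PCL-S) down to 0.853 (PCL-SE), and Col9a2 from 9.83 down to 3.15. Not every gene under the cutoff was lower in PCL-SE: Col19a1 went from 1.24 to 1.31. Whether the E7 difference depends on S7 was not tested.

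The genes that make, read and remove collagen were set beside the chains from lists chosen for that purpose. Of 30 tested genes for collagen processing (prolyl and lysyl hydroxylases, chaperones, propeptidases and lysyl oxidases), 6 rose and 5 fell with S7 on day 3, and 1 rose and 25 fell on day 7, with a median of -0.96 on day 7 against -0.03 over all genes. Over all genes tested, 7.10% were higher and 6.87% lower with S7 on day 3, and 24.9% and 26.2% on day 7, and the counts of this list and those below are set against these shares. On day 3 P4ha2, a prolyl 4-hydroxylase subunit that stabilises the helix, rose (1.20 ± 0.17, adjusted p = 0.00728), and Plod2, the lysyl hydroxylase of telopeptide cross-links, fell (-1.03 ± 0.12, adjusted p = 0.00379). On day 7 the falls included Plod2 (-1.94 ± 0.12, adjusted p = 0.000144), the propeptidase genes Adamts2 (-2.08 ± 0.12, adjusted p = 0.000128) and Adamts14 (-2.60 ± 0.17, adjusted p = 0.000151), and the lysyl oxidases Loxl1 (-1.80 ± 0.13, adjusted p = 0.000195) and Loxl2 (-1.83 ± 0.10, adjusted p = 0.000101). Plod2 stood at 1725, 1469, 761 and 783 CPM on day 3 and 1579.5, 1294, 440.2 and 435 on day 7, so it was already lower with S7 when type I chains were not.

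Of 8 tested collagen receptor genes, 1 rose and 1 fell with S7 on day 3, where 7.10% and 6.87% of all genes were called, and 6 fell on day 7, where 26.2% of all genes did. The integrin subunits Itga1 (-2.96 ± 0.22, adjusted p = 0.000194) and Itga11 (-1.89 ± 0.11, adjusted p = 0.000128), which pair with Itgb1 to bind fibrillar collagen, had the largest falls. Of 8 tested collagen-degrading enzyme genes, 1 rose on day 3 (Ctsk, cathepsin K, 0.57 ± 0.07, adjusted p = 0.00479) and 7 fell on day 7, against 26.2% of all genes. The day 7 falls included Fap (-3.44 ± 0.34, adjusted p = 0.000445), Mmp9 (-3.96 ± 0.97, adjusted p = 0.0137) and Ctsk (-1.47 ± 0.07, adjusted p = 9.22e-05), while Mmp1 and Mmp8 were at 0 in all libraries. Most tested genes of both synthesis and degradation were lower with S7 on day 7.

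Of 12 transcription factor genes known to act on collagen promoters, 4 rose and 2 fell with S7 on day 3, where 7.10% and 6.87% of all genes were called. On day 7, 3 of the 12 rose and 2 fell, where 24.9% and 26.2% of all genes were called, so the day 7 counts are near or below the background. Sox5, a partner of Sox9 at the type II collagen gene, rose on both days (1.22 ± 0.22, adjusted p = 0.0141, then 1.01 ± 0.21, adjusted p = 0.00752), while Sox9 fell on day 7 (-0.68 ± 0.18, adjusted p = 0.0176). Runx2, the osteoblast regulator, rose on day 3 (0.86 ± 0.13, adjusted p = 0.00873), and the tendon factor gene Scx fell (-1.04 ± 0.15, adjusted p = 0.00776). The 10 osteoblast markers summed to 694 to 728 CPM without S7 and 929 to 974 with it on day 3, and to 1068 to 1356 and 1717 to 2839 on day 7. Of the 8 osteoblast markers tested on day 7, 1 was higher and 5 were lower with S7, so the sum and the count of genes differ in direction. Most of that sum is Spp1, at 1296, 1022, 1679.5 and 2794.5 CPM on day 7 in the order PCL-O, PCL-E, PCL-S and PCL-SE.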

How the data were processed

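Messenger RNA of BMSCs was profiled in 8 libraries. Whole-number counts per gene and library are as deposited, per the file headers, and the deposited FPKM values, which the authors scaled to gene length and library size per the file headers, were used for levels per length and to derive gene lengths. Neither aligner nor counter is given in the sources used here; the submitters' processing notes give mm10, whereas 22050 of 26873 features carry rat Ensembl identifiers, 0 mouse ones and 4823 no symbol. Text fragments filled 10 lines of the table, which were dropped.

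Counts were filtered with filterByExpr (minimum count 10), scaled with TMM and fitted with edgeR 4.0.16 (R 4.3.3) over all 8 libraries with terms for S7, day, S7 by day and E7 (biological coefficient of variation 0.137 with 3 residual degrees of freedom). Quasi-likelihood F-tests were adjusted by Benjamini-Hochberg over the 15942 genes tested and called under 0.05. Errors are standard errors of the log2 fold change. Printed CPM are scaled to the library total. A floor of 3 counts covers counting error only. The script was tested on simulated data.

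Values in all libraries are given for collagen genes that reached 5 CPM in a library and were called in a contrast; the others are given by count and name. Of each other list, up to 8 called genes with the largest fold change may be named. The collagen genes, classes, lists and tests were chosen with earlier results of these data known. Alternatives were DESeq2 1.42.0, DESeq2 size factors in edgeR, total-count scaling, no low-count filter, no E7 term, an E7 by day term, leaving out each library and another pseudocount; removal of a gene length trend was added after seeing the data. Tables and figures used Python 3.11.15 and pandas 2.3.3.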

Additional observations from a re-analysis of the deposited data

Results flagged for a closer look

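For 28 of 34 collagen genes the S7 difference itself differed between the days, by edgeR's quasi-likelihood test of the S7 by day term (adjusted p under 0.05 over all genes tested). Of these, 25 reached 5 CPM in a library and are given below; the other 3 stayed under it, Col11a2 (-2.42), Col4a4 (-1.73) and Col9a3 (-1.30). The values below are the log2 fold change of S7 on day 7 minus that on day 3, and a negative value means a smaller or more negative S7 difference on day 7. No cause was tested.

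The largest was Col2a1 at -4.13, which was lower with S7 on both days (-2.49, then -6.62). The next were Col4a3 (-3.38) and Col14a1 (-3.27), whose day 3 differences were small (-0.37 and -0.57). Col12a1 (-3.20), Col15a1 (-3.11), Col1a1 (-2.76), Col1a2 (-2.69), Col3a1 (-2.23) and Col11a1 (-1.52) had positive but uncalled values on day 3 and were lower on day 7. A change of sign between called differences was found for Col6a1 (-2.57), Col4a1 (-2.45), Col5a1 (-2.44), Col5a3 (-2.31), Col6a2 (-2.30), Col4a2 (-2.26), Col16a1 (-2.04) and Col5a2 (-1.80). Col18a1 (-3.13) was higher on day 3 and not called on day 7, and Col7a1 (-3.10) was higher on both days with a smaller difference on day 7. Col9a1 (-2.90), Col27a1 (-2.30), Col4a5 (-1.78) and Col8a1 (-1.49) had negative, uncalled values on day 3, and Col4a6 (-1.73) a positive, uncalled one. Col19a1 (-1.65) was lower on both days. The muscle marker sums given above moved in the same libraries, and their part was not tested.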

How the results depend on the processing

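Of the 114 calls of single collagen genes over the contrasts, 0 changed direction under any alternative run. None was lost with no low-count filter, 1 with DESeq2 size factors in edgeR and 2 with DESeq2, where each loss was of Col9a3. The number lost was 2 without the E7 term, 3 with the length trend removed, 5 under total-count scaling and 5 with an E7 by day term. It was 0 to 23 when 1 library was left out, the most without PCL-SE of day 3. The number of collagen genes called for S7 on day 3 (19) ran from 7 to 26 as each library was left out. The number called between days without S7 (4) ran from 0 to 11, and it was 13 with DESeq2 and 2 with an E7 by day term; the cause was not tested. The counts ran from 27 to 32 for S7 on day 7 (31), 24 to 29 for S7 by day (28) and 28 to 32 between days with S7 (32). E7 gave 0 in each fit that had the term. For the other contrasts, the number called over all genes moved too as each library was left out. Where a left-out library leaves an arm with 1 sample, that sample is assumed to vary like the others. With the pseudocount at 0.5, 5 collagen genes were 2-fold lower in PCL-E than in PCL-O on day 7. No paired analysis was possible because the labels carry no replicate numbers and each arm and day has 1 library. Genes near 3 counts per library, such as Col10a1 and Col24a1 with S7, have fold changes limited by depth.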
